A study of Homo sapiens with 9 samples.

Results

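In human mast cells and the RNA that they released, 6 array entries were followed that are named as miRNAs but are said to lie in or resemble pieces of transfer RNA: hsa-miR-4454, hsa-miR-1260a, hsa-miR-1260b, hsa-miR-4286, hsa-miR-5100 and hsa-miR-3676-3p. They were taken by name, 1 probe each, from 2019 miRNA probes on an array. All libraries come from HMC-1, an immortal line from a patient's mast cell leukaemia, with no treatment or genetic change named in the labels. The groups, with 3 libraries each, are the cells themselves and the RNA they released, separated on sucrose into a dense fraction (HD, high density) and a light fraction (LD, low density). Libraries with the same number share 1 of 3 cultures, per the design text of the series, so the cultures are replicates of 1 line.

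Transfer RNAs bring amino acids to the ribosome. After transcription, an enzyme adds the bases CCA to their 3′ end, which human tRNA genes do not encode. Cells also cut tRNAs into short fragments, and such fragments are a known part of the RNA found outside cells. A fragment from the 3′ end of a tRNA has about the length of a miRNA, so some entries named as miRNAs match tRNA ends.

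Mature sequences were found in RefSeq (GRCh38.p14) for 4 of the 6 entries. They are shown with the seed, bases 2 to 8 that pair with a target, in capitals, since seeds and endings are what these 4 share or do not share.
miR-4454: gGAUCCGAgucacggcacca
miR-1260a: aUCCCACCucugccacca
miR-1260b: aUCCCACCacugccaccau
miR-5100: uUCAGAUCccagcggugccucu
miR-1260a and miR-1260b share a seed that no other mature miRNA of the table has. They are identical at 17 bases, differ by U9A (the base of miR-1260a first, counted from 1 at the 5′ end), and miR-1260b is 1 base longer. Whether both probes bound the same molecules was not measured. miR-4454 and miR-1260a end in CCA, as 45 of 2370 mature names in the table do (1.90%).

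The gene of miR-4454 lies on the minus strand, with the mature part at chr4:163093607-163093626, and that of miR-5100 on the plus strand at chr10:42997630-42997651. Neither lies within the span of another annotated gene. The mature part of miR-1260a is at chr14:77266231-77266248 (plus strand), within the span of NGB, which encodes neuroglobin. That of miR-1260b is at chr11:96341447-96341465 (plus strand), within the span of MAML2, a coactivator of Notch signalling. The table gives spans and not exons, so exon and intron were not told apart.

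The likeness to tRNA was measured where RefSeq sequence was at hand. Of 465 annotated tRNA genes, 14 lay whole within a promoter window of the sequence table, and they hold 12 distinct sequences. A histidine tRNA gene (TRH-GTG1-9, chr15:45201151-45201222) and a leucine tRNA gene (TRL-AAG2-2, chr6:28943622-28943703) gave the best matches, and the capitals mark the bases that lie opposite miR-4454 and miR-1260a.
TRH-GTG1-9: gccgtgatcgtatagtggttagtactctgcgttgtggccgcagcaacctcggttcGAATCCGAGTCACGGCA
TRL-AAG2-2: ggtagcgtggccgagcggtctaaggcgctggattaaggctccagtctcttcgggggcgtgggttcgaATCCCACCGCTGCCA
With CCA added to the gene's 3′ end, miR-4454 is identical to the histidine tRNA at 19 of 20 bases, the difference being G2A (miRNA base, position in the miRNA, tRNA base). miR-1260a is identical to the leucine tRNA at 17 of 18 bases, with U9G. miR-1260b differs from that tRNA at the same position, with A9G, and its last base runs past the CCA. miR-5100 matched its best tRNA at 16 of 22 bases. The other tRNA genes were not compared, and which molecule bound a probe was not measured.

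Hairpins of 3 entries are in the same table and are shown with the mature part in capitals, to show where it sits.
MIR1260A: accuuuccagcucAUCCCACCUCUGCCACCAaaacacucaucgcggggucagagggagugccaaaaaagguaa
MIR1260B: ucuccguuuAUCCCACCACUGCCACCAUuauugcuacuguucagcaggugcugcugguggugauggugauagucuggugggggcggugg
MIR5100: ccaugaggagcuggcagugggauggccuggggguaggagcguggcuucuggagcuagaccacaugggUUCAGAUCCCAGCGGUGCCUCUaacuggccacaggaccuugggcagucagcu
The predicted folding energy of MIR1260A was -0.277 kcal/mol per base, against a median of -0.452 over 1562 hairpins of the table, and 95.3% of these were more stable. The share of more stable hairpins was 46.9% for MIR1260B and 68.2% for MIR5100. Of these 3, only MIR1260A is among the least stable hairpins of the table.

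The arrays detected 440 to 506 miRNA probes in cells, 254 to 329 in HD and 303 to 368 in LD. A probe counts as detected where the authors give a normalized intensity. That intensity is scaled to an array's median detected probe, so it does not measure the amount of RNA in a fraction, and fewer particles with an RNA and less of it in each cannot be told apart. The blood cell miRNAs miR-221-3p, miR-223-3p, miR-142-5p, miR-222-3p and miR-142-3p were detected on all 3 cell arrays. Of the miRNAs that mark liver, muscle, neurons, epithelium and red cells, miR-9-5p was detected on all 3 cell arrays and each of the others on at most 2. The 5 blood cell miRNAs were all lower in HD and in LD than in cells (median log2 changes -4.71 and -2.77). Over all tested probes, 49.4% were called lower in HD and 44.0% in LD (adjusted p under 0.05). Only miR-142-5p among the 5 was detected on all 3 HD arrays. The HD changes of the others thus rest wholly or partly on floors, the lowest detected value of each array. In LD all 5 were detected on every array. The red cell miRNA miR-451a was detected on 2 cell arrays and on all HD and LD arrays. It was higher in HD than in cells by 2.44 (SE 0.86, adjusted p = 0.0229), and its part in the results was not tested. The other red cell miRNA looked at, miR-144-3p, was detected on 1 HD array alone and did not enter the tests. Slides were inferred from a chip number and scan session in the file names, and the labels do not state them. Read so, the 3 cell arrays share a slide of a separate session, the 3 HD arrays share one with LD replicate 1, and LD replicates 2 and 3 share another. No slide holds cells together with HD or LD. Neither slide nor scan session can therefore be told apart from group in either comparison with cells.

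miR-4454, the entry that matches the end of histidine tRNA, dominated the cell and LD arrays. Its normalized intensity was 68312, 97820 and 49890 in cell replicates 1, 2 and 3. In LD replicates 1, 2 and 3 it was 18175, 20287 and 25764, and in HD replicates 1, 2 and 3 it was 658, 254 and 302. The 3 groups do not overlap: cells were highest and HD lowest. It was the brightest miRNA probe on all 6 cell and LD arrays and ranked between 28 and 57 in HD.

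**Figure D1:**
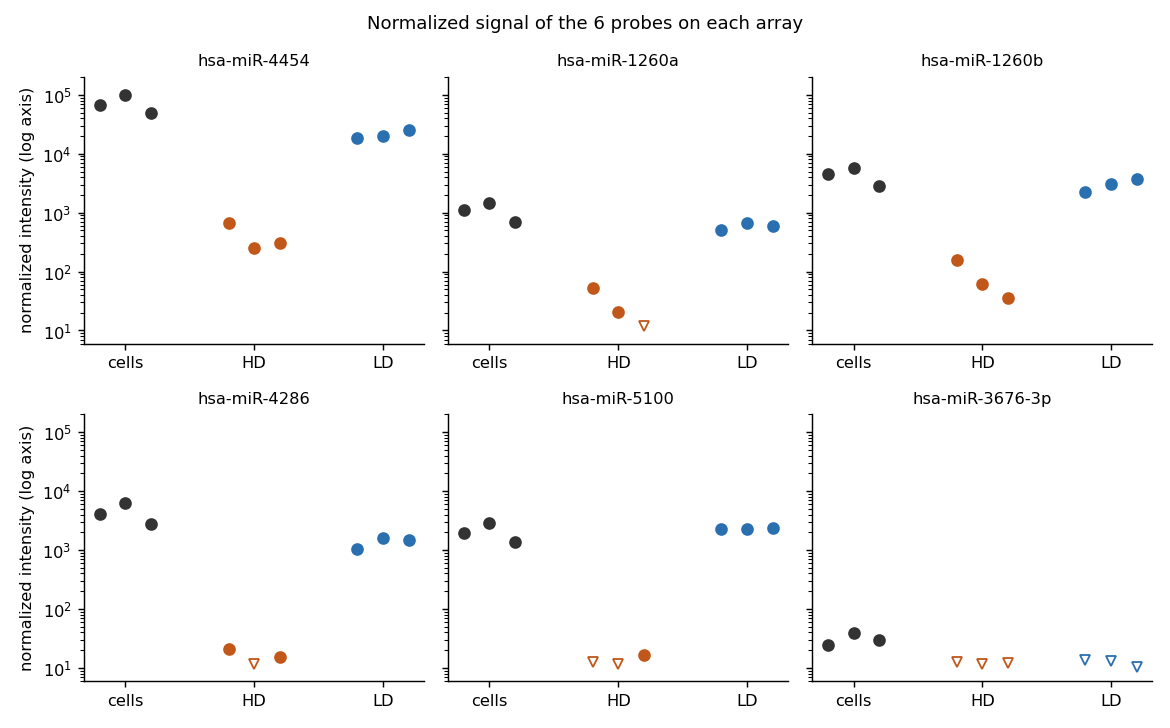
Normalized intensity (log axis) of the 6 probes on each of the 9 arrays, grouped as cells, HD and LD. Filled points are detected values, and open triangles mark arrays where the probe was not detected, drawn at the lowest detected value of that array. For miR-5100, LD lies between 2272 and 2396 and 2 of the 3 HD arrays are open triangles.

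The share of the summed miRNA signal shows the same order. miR-4454 alone made up 49.2%, 49.2% and 43.2% of the summed background-subtracted signal of detected miRNA probes in the cell replicates. In LD it made up 38.0%, 31.0% and 35.7%, and in HD 0.634%, 0.213% and 0.523%. The next brightest probe held at most 3.31% in cells and 5.20% in LD. These shares depend on how strongly each probe binds and are not shares of molecules. They bear on scaling, because a median per array is not moved by 1 bright probe whereas a sum is. The other 5 entries together held 6.64% to 8.37% in cells, 11.4% to 12.7% in LD and 0.0703% to 0.222% in HD, so their summed share was higher in each LD array than in each cell array.

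**Figure D2:**
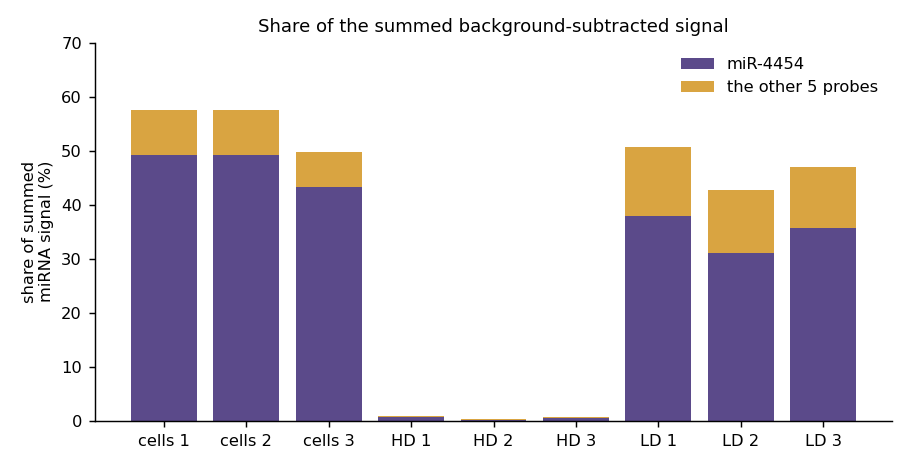
Share of the summed background-subtracted miRNA signal (%) held by miR-4454 and by the other 5 probes on each array. Stacked bars reach 49.9% to 57.6% in cells, 42.8% to 50.7% in LD and under 1% in HD.

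HD was compared with cells to ask what of the cellular RNA is found in the dense fraction. All 6 entries were lower in HD, miR-3676-3p only against floor values, and in all 6 the HD and cell values do not overlap. Of the 334 tested probes 79.9% were called, 30.5% higher and 49.4% lower, and 78.7% had groups that do not overlap, so a fall alone does not set the 6 apart. The median log2 change was -6.54 for the 6 entries and -0.70 for all tested probes. Falls of this size were not particular to the 6: miR-146b-5p, at a floor in HD, changed by -7.47 and miR-21-5p by -7.18, both named after their values were seen. miR-4454 fell by 7.55 ± 0.41 on the log2 scale (SE, n = 3 per group, adjusted p = 1.06e-07), or 188-fold. The changes within cultures 1, 2 and 3 were -6.70, -8.59 and -7.37, so every culture showed it.

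Of the 2 entries that match leucine tRNA, only miR-1260b kept a low signal on all HD arrays. Raw HD signals were 1.23 to 1.81 times the background value of their array for miR-1260b. For miR-1260a they were 1.06 to 1.28 times that value. miR-1260b, which differs from that tRNA end by 1 base and an added base, had normalized intensities of 4502, 5808 and 2813 in the cell replicates and 156, 62.7 and 35.0 in the HD replicates. It was detected on all 6 arrays and fell by 5.90 ± 0.48 on the log2 scale (adjusted p = 1.10e-06). miR-1260a measured 1111, 1457 and 703 in cells and 53.3 and 21.0 in HD replicates 1 and 2, and was not detected in HD replicate 3. Its log2 change of -5.46 ± 0.43 (adjusted p = 9.49e-07) understates the fall, since 1 value is a floor, the lowest detected value of its array.

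miR-4286 and miR-5100 were at the edge of detection in HD. miR-4286 measured 4063, 6202 and 2770 in cells, 20.6 and 15.6 in HD replicates 1 and 3, and was not detected in HD replicate 2. It fell by 8.05 ± 0.38 on the log2 scale (adjusted p = 1.00e-07), the second lowest change of the 334 probes, ahead of miR-4454 at the third place. miR-5100 measured 1913, 2875 and 1346 in cells and 16.5 in HD replicate 3, and was not detected on the other HD arrays. It fell by 7.18 ± 0.34 (adjusted p = 1.00e-07), and both folds are understated for the same reason. Raw HD signals of these 2 probes were 1.00 to 1.11 times the background value of their array.

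miR-3676-3p was dim everywhere. It measured 24.0, 39.8 and 29.4 in the cell replicates and was not detected on any HD or LD array. On the authors' normalized intensity it was at least 2.51-fold lower in HD (limma adjusted p = 0.00168) and at least 2.49-fold lower in LD (adjusted p = 0.00265). These bounds set the cell mean against the floors of the arrays. It was tested only because the cell arrays detected it, and every HD and LD value is a floor. The direction was thus largely fixed by the filter, and these p values are no independent evidence of a fall. Its raw cell signals were 1.14 to 1.19 times the background value, so there was little room for a fall to be seen.

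The falls of the 5 bright entries in HD were called under all alternatives run that could test them, but their size depended on the processing. In the authors' deposited log2 table the changes were -5.60 for miR-4454, -2.12 for miR-1260a, -3.38 for miR-1260b, -3.76 for miR-4286 and -2.97 for miR-5100. On the spike controls they were -4.66, -2.57, -3.01, -5.16 and -4.28 in that order, and that of miR-3676-3p was 1.56, from floor values in HD. No scaling ended the call of miR-3676-3p (-1.13, adjusted p = 0.209).

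LD was compared with cells to ask what is found in the light fraction. Here 3 of the 6 entries were called lower, among them miR-3676-3p only against floor values. Of the others 3 were not called and 0 rose, and in 4 of 6 the groups do not overlap. Of all tested probes 60.8% were called, 44.0% lower and 16.8% higher, and 67.1% had groups that do not overlap. miR-4454 had a log2 change of -1.71 ± 0.41 (adjusted p = 0.00399), 3.27-fold lower, and in cultures 1, 2 and 3 it changed by -1.91, -2.27 and -0.95. miR-4286 measured 1046, 1619 and 1488 in LD and fell by 1.60 ± 0.38 (adjusted p = 0.00383), 3.03-fold. Both were lower in all 3 cultures, and the cell and LD values do not overlap.

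The leucine tRNA pair and miR-5100 were not called in LD. miR-1260a measured 502, 680 and 587 in LD, with a log2 change of -0.84 ± 0.43 (adjusted p = 0.117, not called), although all 3 LD values lie below the cell values. It was called lower without HD replicate 1 (-0.84, adjusted p = 0.0376) or LD replicate 3 (-1.23, adjusted p = 0.0335), when only cells and LD were fitted (-0.84, adjusted p = 0.0416) and when scaled on probes with a signal on every array (-1.56, adjusted p = 0.00213). miR-1260b measured 2265, 3095 and 3753, a change of -0.49 ± 0.48 (adjusted p = 0.399), and its LD and cell values overlap. Without LD replicate 1 its change was 0.02 and without LD replicate 3 it was -1.06, neither of them called. miR-5100 measured 2272, 2278 and 2396, a change of 0.25 ± 0.34 (adjusted p = 0.543). It was higher than in cells in cultures 1 and 3 and lower in culture 2, and its 3 LD values were the closest together of any entry, with an SD of 0.0433 log2 units. It was called higher in LD by quantile normalization (1.40), with normexp (1.33), in the authors' deposited log2 table (1.24), on the spike controls (2.48) and on the summed signal without miR-4454 (1.22).

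**Figure D3:**
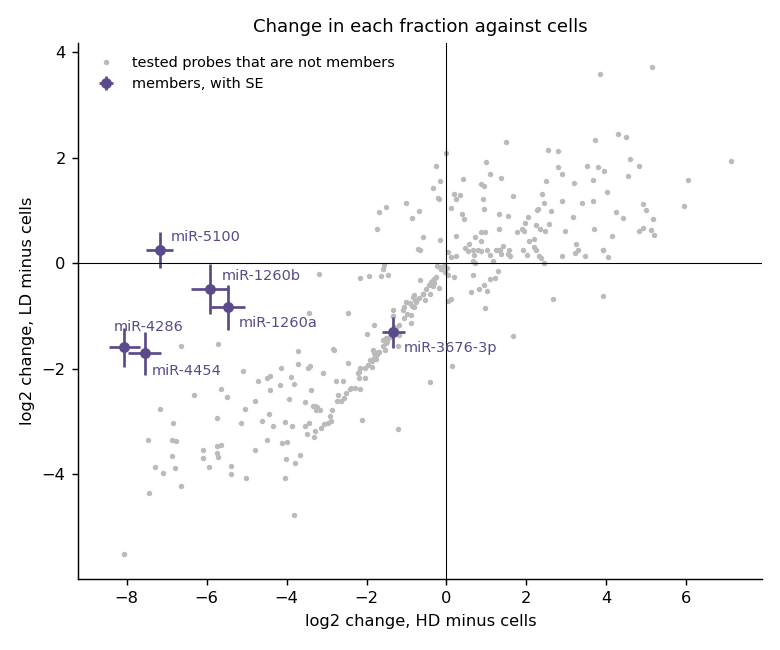
Log2 change of each tested probe in HD (horizontal) and in LD (vertical) against the same cell arrays; purple points are the 6 entries with the SE of the model and grey points are the other tested probes. miR-5100 lies at -7.18 and 0.25, and miR-4454 at -7.55 and -1.71.

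These LD calls depended on scaling and on how slide was modelled. No slide holds both cells and LD, so no slide term can separate slide from group here. Without scaling 0 of 6 were called, with miR-4454 at -0.85 and miR-4286 at -0.74. Scaling on the spike controls moved the median change of all tested probes from -0.54 to 1.69, and then 3 entries rose (miR-1260a by 1.39, miR-1260b by 1.74 and miR-5100 by 2.48) and 0 fell. With slide as a random block in place of the culture term the same 3 entries were called (miR-4454 at -1.70 and miR-4286 at -1.58). With slide as a random block and the culture term, chosen after seeing the data, 0 of 6 were called, with miR-4454 at -1.79 (adjusted p = 0.061) and miR-4286 at -1.67 (adjusted p = 0.0601). A factor per array cannot change a probe's distance from the median change. By that measure miR-5100 lay 0.79 log2 units above the median tested probe and miR-1260b 0.05 above it. miR-1260a lay -0.29, miR-4286 -1.05 and miR-4454 -1.17 from it. The distance does depend on which probes form the median, which was 0.14 over probes detected on at least 2 arrays. Over probes detected on all 9 arrays it was 0.94. The change of miR-5100, 0.25, lies above the first of these medians and below the second. That of miR-1260b, -0.49, lies below both.

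**Figure D4:**
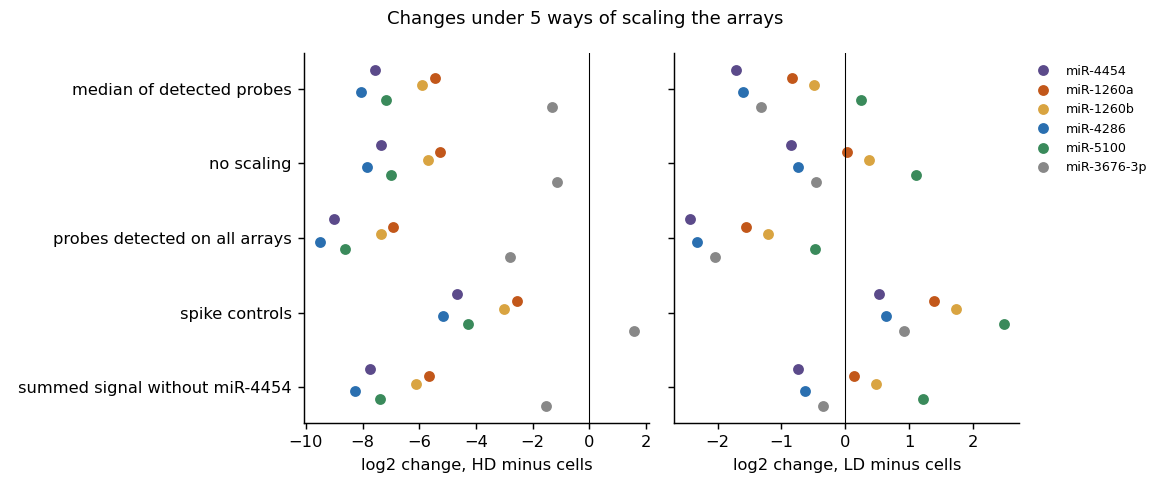
Log2 change of the 6 entries in HD (left) and in LD (right) against cells under 5 ways of scaling the arrays, 1 colour per entry. In HD the 5 bright entries stay below 0 under each, whereas in LD miR-4454 runs from -2.43 to 0.52.

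Differences between 2 probes of the same array do not depend on its scaling, so the 5 bright entries were compared in pairs. In cells the SD of these differences over the 3 arrays ran from 0.0121 log2 units for miR-1260a against miR-1260b to 0.121 for miR-1260b against miR-4286. For miR-4286 against miR-5100 it was 0.0344. In LD they shifted. The log2 signal of miR-4454 minus that of miR-5100 was 5.15 ± 0.06 in cells and 3.19 ± 0.22 in LD (SD, n = 3), so miR-5100 gained 3.89-fold on miR-4454 from cells to LD. For miR-4286 minus miR-5100 it was 1.08 ± 0.03 in cells and -0.77 ± 0.32 in LD, a gain of 3.59-fold for miR-5100. miR-1260b gained 2.32-fold on miR-4454 and 2.15-fold on miR-4286.

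Of the 10 pairs, 9 did not overlap between cells and LD, and over all pairs of probes detected on those 6 arrays 76.6% did not. The exact permutation p (two-sided) was 0.1 for each of the 9, the smallest that 3 against 3 allows, or 0.12 adjusted over 12 pair comparisons, so this design could not pass 0.05. The pair that overlapped was miR-4454 and miR-4286, with 4.07 ± 0.10 in cells and 3.96 ± 0.27 in LD (exact permutation p = 0.7). miR-4454 and miR-1260b could also be set against each other in HD, where the difference was 2.40 ± 0.61, compared with 4.05 ± 0.11 in cells (exact permutation p = 0.1, with 75.8% of all such probe pairs not overlapping). Between LD and HD that pair overlapped (exact permutation p = 0.4), while 73.5% of all such pairs did not.

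**Figure D5:**
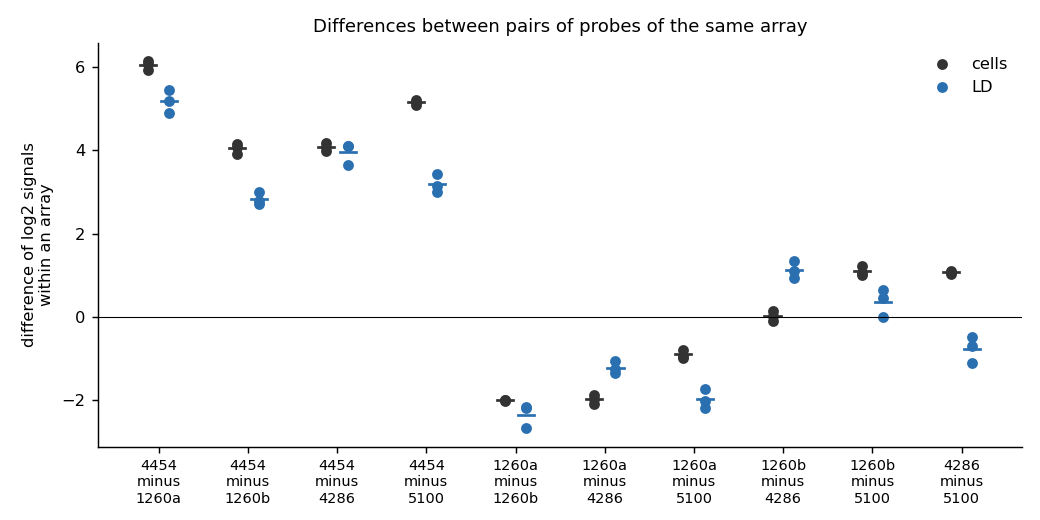
Difference of the log2 signals of 2 probes of the same array (vertical) for the 10 pairs of bright entries, in cells (dark) and LD (blue); points are the 3 arrays and lines their means. For miR-4454 minus miR-5100 the mean is 5.15 in cells and 3.19 in LD.

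LD was compared with HD to ask how the released RNA differs by density. The 5 bright entries were higher in LD, with no overlap between the groups, and miR-3676-3p was detected in neither. Of all tested probes 52.1% were called, 25.7% higher and 26.3% lower in LD, and 55.4% had groups that do not overlap. miR-5100 had the largest rise of the 334 tested probes, 7.43 ± 0.34 on the log2 scale (adjusted p = 2.50e-07). miR-4286 followed at 6.46 ± 0.38, miR-4454 at 5.84 ± 0.41 and miR-1260b at 5.41 ± 0.48, which are the next 3 places, and miR-1260a was sixth at 4.62 ± 0.43 (adjusted p = 1.55e-05). The differences of miR-5100, miR-4286 and miR-1260a are understated, because HD held floor values.

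LD replicate 1 shared a slide with the HD arrays, which allows the comparison within a slide. There miR-5100 was higher by 7.40, miR-4286 by 6.08, miR-4454 by 5.62, miR-1260b by 5.02 and miR-1260a by 4.40 log2 units. The lone LD array has no replicate there and is assumed to vary like the 3 HD arrays. On that assumption limma called the first 4 of these entries and not miR-1260a (adjusted p = 0.0558), and 59 of 345 tested probes were called higher.

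Probes with the most similar profile were sought among the 330 other tested probes with a value on all 9 arrays, by the root mean square difference of log2 values after each probe's mean was taken off. For miR-4454 the closest was miR-4286 (0.35 log2 units), followed by miR-223-3p, known from myeloid cells (0.54), and miR-21-5p, often raised in tumours (0.68). For miR-1260a it was miR-1260b (0.35), then miR-15b-5p (0.50) and miR-223-3p (0.67). On the HD arrays miR-223-3p, miR-21-5p and miR-15b-5p were each detected on 1, and miR-4286 and miR-1260a on 2. These likenesses thus rest partly on floors. miR-5100 had no neighbour closer than miR-4286 (0.79), and its 3 closest probes were all entries of this set. The closest probes to miR-3676-3p, miR-3607-5p among them (0.04), were likewise detected only in cells, so their likeness rests on shared floor values.

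Other entries tied to tRNA gave little to compare. Of 7 such names 2 were on the array, miR-4521 and miR-3676-5p, and 0 were tested: miR-4521 was detected on 2 cell arrays and 1 HD array, and miR-3676-5p on 1 of each. Of 8 tested entries tied to other small RNAs, 6 fell and 2 rose in HD (median -1.80), and 7 fell and 0 rose in LD (median -1.58). Of these 8, 1 was higher and 2 were lower in LD than in HD. Over all tested probes 30.5% were called higher and 49.4% lower in HD, and 16.8% and 44.0% in LD. Between LD and HD 25.7% were called higher in LD and 26.3% lower. miR-3687, miR-664a-3p, miR-3651 and miR-3653 were tested only through the cells. They held floor values on all LD arrays and most or all HD arrays, so the direction of their falls was largely fixed by the filter. The 2 that rose in HD were miR-1246, which resembles part of the U2 spliceosomal RNA, by 1.65 and miR-3648, which lies in ribosomal RNA repeats, by 2.62 on the log2 scale.

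Other probes whose sequence ends in CCA were looked at for comparison. Of 36 such probes on the array, the entries included, 7 were tested, and 5 of these are not among the 6 entries. In HD 2 of the 5 rose and 2 fell, with a median of 0.04: miR-4484 rose by 3.72, whereas miR-223-3p had a log2 change of -6.64. The other rise, that of miR-4698 by 3.30, was set against floors, since no cell array detected it. This probe was tested only through HD, so the direction of its rise was largely fixed by the filter. In LD 1 rose and 2 fell. The shares over all tested probes were 30.5% higher and 49.4% lower in HD, and 16.8% and 44.0% in LD. With 5 probes, these counts do not set a CCA ending apart from the rest.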

How the data were processed

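RNA of 9 HMC-1 libraries was labelled with Hy5 and hybridised to 1-colour arrays whose probes contain locked nucleic acids, as the labels' protocols state. Per the file headers, the authors deposited 3 forms of intensity for each spot: raw, after background subtraction, and globally normalized. A table of log2 values was also deposited for the series. No scanner is named in the sources used here, and saturation is not marked.

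Tests used log2 of the normalized intensity. The 25 miRNA values marked NG were left out, and each undetected value was replaced by its array's lowest detected one, the floor. Probes had to be detected throughout at least 1 group, and the 334 that were went into limma 3.58.1 (R 4.3.3), with groups and culture as terms and all 9 libraries sharing 1 spread per probe (4 residual and 6.05 prior degrees of freedom). Adjusted p is Benjamini-Hochberg over 334 probes, threshold 0.05.

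Same-numbered libraries are paired by the design text; their deviations from group means correlated between -0.282 and 0.209. Hairpins were folded with RNAfold 2.7.2. Exact permutation tests used scipy 1.17.1. Figures used matplotlib 3.10.9.

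The members, lists, named probes and tests were chosen with earlier results of these data known. The named probes are the 6 entries, their 3 nearest probes, members of the lists and miR-146b-5p, named after its values were seen. Alternatives changed the culture term, the samples fitted, the treatment of undetected values, filter, scaling, normalization and slide. The number of arrays limits the precision.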

Additional observations from a re-analysis of the deposited data

How the results depend on the processing

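The scaling, the number of arrays and the detection floor all limit these results: in HD 4 of the 6 entries held floor values, and miR-4454 tops each cell and LD array, so its change in LD is 0 by construction after quantile normalization, with normexp and in the deposited log2 values. Without the replicate block 267, 201 and 170 probes were called for HD against cells, LD against cells and LD against HD, against 267, 203 and 174 with it, with 6 entries lower, 3 lower and 5 higher under both. With undetected values left missing 140 probes were called for HD against cells and 113 for LD against HD. With only the probes detected on all 9 arrays, 58, 44 and 54 were called in that order; of the 2 entries left, 2 were lower in HD, 1 was lower in LD and 2 were higher in LD than in HD. Without scaling 95 were called for LD against cells, 0 of the 6 entries lower, and 100 for LD against HD. On the spike controls 1 entry was called higher in HD (miR-3676-3p at 1.56, from floors), and in LD 0 were lower and 3 higher, with miR-4454 at 0.52, miR-1260a at 1.39, miR-1260b at 1.74, miR-4286 at 0.63 and miR-3676-3p at 0.92. Scaling on probes with a signal on every array gave 5 lower in LD. By quantile normalization 1 was lower and 1 (miR-5100) higher in LD, by normexp 1 (miR-5100) was higher, and in the deposited log2 values 2 were higher, miR-5100 and miR-1260b at 0.85. With normexp and in the deposited log2 values 2 were also lower in LD, miR-4286 and miR-3676-3p. Over all tested probes, the split of higher and lower calls was 102 and 165 for HD against cells, 56 and 147 for LD against cells and 86 and 88 for LD against HD; on the spike controls it was 223 and 56, 202 and 31, and 52 and 107. On probes with a signal on every array it was 55 and 220, 20 and 187, and 119 and 53. For LD against cells and LD against HD it was 46 and 49, and 71 and 29, without scaling; by the summed signal without miR-4454 it was 141 and 101, and 222 and 40. For LD against cells it was 92 and 129 by quantile normalization, 81 and 120 with normexp and 71 and 117 in the deposited log2 values. The following 2 settings were chosen after seeing the data. Scaled on the summed signal without miR-4454, 262 probes were called for LD against HD, and in LD against cells 0 entries were lower and 1 (miR-5100, at 1.22) was higher. With culture in the model and slide as a random block, 133 probes and 0 entries were called for LD against cells. With slide as a fixed block 114 were called for LD against HD, and 89 of 345 within the shared slide. Leaving out 1 library or 1 culture gave 230 to 277, 160 to 218 and 117 to 181 called probes, with 6 entries lower in HD, 3 to 4 lower in LD and 5 higher in LD than in HD throughout. The cause of each change was not tested.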

Other observations

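The raw intensity of miR-4454 was a whole number on cell replicates 1 (44770) and 2 (37908). Counting only values that are exactly whole as deposited, with no tolerance, no other miRNA spot with a raw intensity over 100 had one on any of the 9 arrays, and these are the 2 brightest miRNA spots of the series. The files do not mark saturated spots, and whether these 2 values were bounded was not tested.

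Among the HD replicates, replicate 1 had the highest normalized intensity of miR-4454, miR-1260a, miR-1260b and miR-4286, and it held the largest share of summed signal of the 6 entries (0.857%, against 0.284% and 0.639% in replicates 2 and 3). miR-5100 was detected in HD replicate 3 only.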
